A study of Mus musculus with 2 samples.

Results

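The genes described here are 9 members of the coagulation and fibrinolysis system, chosen by symbol from the 32285 genes of the count matrices, of which 20890 had a UMI in the filtered cells. They are the clotting factor genes F3, F5, F7, F10 and F13a1, the anticoagulant genes Thbd, Procr and Tfpi, and the plasminogen activator gene Plau. All 9 gene symbols were found, and 8 of the genes held at least 20 UMIs over both libraries, F7 being the exception. They were measured by single-cell RNA-seq of the dorsal meninges of male C57BL/6 mice that the sample descriptions put at 10 weeks of age, while another field gives a range. The meninges of 5 mice given a mild closed-skull injury (TBI) were pooled into 1 library, and those of 5 mice given a Sham procedure into another, each collected 1 week after the procedure. Both groups were wild-type and carried no transgene. Live single cells were sorted after enzymatic digestion and captured on a droplet platform that reads the 3′ ends of transcripts.

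Because each group was 1 pooled library, no test between groups was possible, and every interval below is a 95% interval that covers counting error only, not the spread between mice. The intervals of levels and of ratios come from summed UMIs and also leave out the spread between cells. The filtered libraries held 2043 Sham cells with 7866611 UMIs and 3773 TBI cells with 13940740 UMIs, at a median of 2764 and 2663 UMIs per cell, and 14 barcodes occurred in both. Clustering of both libraries gave 28 clusters, of which 23 were named from marker genes as 19 classes, written here as monocyte-like, macrophage-like and so on, and 5 stayed unnamed. The 51 genes of the pathway were kept out of the genes that shaped the clusters. Levels (CPM) are UMIs of a gene per 1000000 UMIs of the class, and since only 3′ ends were read they were not divided by gene length.

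Coagulation begins when tissue factor, the product of F3, meets factor VII in the blood, and the pair activates factor X, the product of F10. Activated factor X and its cofactor, activated factor V, turn prothrombin into thrombin, which makes fibrin, and factor XIII, whose catalytic chain is encoded by F13a1, cross-links that fibrin. Thrombomodulin (Thbd) and the endothelial protein C receptor (Procr) on vessel walls turn thrombin towards activating protein C, tissue factor pathway inhibitor (Tfpi) blocks the first step, and urokinase (Plau) makes the plasmin that dissolves clots. Most circulating factors are made by the liver, whereas tissue factor is known from cells that surround vessels and factor XIII-A from monocytes, macrophages and platelets.

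The promoters of 4 clotting factor genes are shown because these genes were highest in different cells: F3 in fibroblast-like cells, F13a1 in macrophage-like and monocyte-like cells, F10 in monocyte-like cells, while its neighbour F7 was almost undetected. Each sequence is the 250 bases before the start of the gene in RefSeq on GRCm38.p6, read 5′ to 3′ on the gene's own strand. The windows are chr3:121723287-121723536 for F3 (plus strand), chr13:37050245-37050494 for F13a1 (minus strand, the more upstream of its 2 starts), chr8:13037058-13037307 for F10 and chr8:13025784-13026033 for F7 (both plus strand). Capitals mark matches on either strand to TGAGTCA (the motif known for AP-1 factors), GGGCGG (known for Sp1 and related factors), TATAAA (known for the factor that places polymerase II), AGATAAG (known for Gata1 and its relatives), AGGAAGT (known for PU.1 and other Ets factors) or its longer form AGAGGAAGT, which holds the shorter one.
F3: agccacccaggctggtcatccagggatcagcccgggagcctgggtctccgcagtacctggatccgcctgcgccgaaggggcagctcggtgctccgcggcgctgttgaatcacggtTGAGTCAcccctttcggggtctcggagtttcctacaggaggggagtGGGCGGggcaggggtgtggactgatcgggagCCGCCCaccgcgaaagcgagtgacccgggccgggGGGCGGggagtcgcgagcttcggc
F13a1: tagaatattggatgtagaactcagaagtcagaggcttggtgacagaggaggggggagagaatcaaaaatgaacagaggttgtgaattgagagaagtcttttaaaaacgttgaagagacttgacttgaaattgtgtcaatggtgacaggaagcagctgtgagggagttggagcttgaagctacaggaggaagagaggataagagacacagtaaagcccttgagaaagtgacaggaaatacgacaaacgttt
F10: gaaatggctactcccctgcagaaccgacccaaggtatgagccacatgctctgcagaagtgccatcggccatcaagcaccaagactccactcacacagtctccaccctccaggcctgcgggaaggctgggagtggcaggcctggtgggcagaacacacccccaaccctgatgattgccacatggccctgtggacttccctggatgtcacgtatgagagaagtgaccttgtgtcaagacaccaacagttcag
F7: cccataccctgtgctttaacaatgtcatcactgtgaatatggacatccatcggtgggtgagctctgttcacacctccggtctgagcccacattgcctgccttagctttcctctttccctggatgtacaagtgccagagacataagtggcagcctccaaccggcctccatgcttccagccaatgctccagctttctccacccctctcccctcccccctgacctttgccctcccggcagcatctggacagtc
The F3 window held TGAGTCA, which 4.46% of the 32851 promoter windows of the same length held, starting 135 bases before the start, and 3 matches to GGGCGG, which 32.7% of windows held. None of the other letters was found in it, and none of the 6 motifs was found in the F13a1, F10 and F7 windows shown. The window before the second F13a1 start held AGGAAGT, present in 7.69% of windows, 36 bases before that start. These matches are descriptions of the letters and not evidence that a factor binds there.

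In these cells the class of highest level differed between the genes. Of the 8 genes with at least 20 UMIs, 2 had their highest mean level in monocyte-like cells (F13a1, F10), 1 in macrophage-like cells (Plau), 2 in fibroblast-like cells (F3, Thbd), 2 in endothelial-like cells (Procr, Tfpi) and 1 in choroid plexus-like cells (F5). Only for F3 and F10 did the intervals lie above those of the next class in both libraries. For F13a1, Tfpi and Plau the order of the first 2 classes differed between the libraries. For Plau the other class was neutrophil-like cells, with 43.4 CPM in Sham and 21.6 CPM in TBI on 2 UMIs each. Over the 14782 genes with as many UMIs, 2.67% were highest in monocyte-like, 2.06% in macrophage-like, 8.77% in fibroblast-like, 7.58% in endothelial-like and 5.97% in choroid plexus-like cells. The class names rest on 12 monocyte, 21 macrophage, 17 endothelial, 15 fibroblast and 8 choroid plexus markers. Each class held UMIs of every marker of its own list in both libraries, which is no separate support, since the names came from these lists. Monocyte-like cells held 32760 CPM in Sham and 29963 CPM in TBI of macrophage markers, beside 7394 and 6538 CPM of monocyte markers. Macrophage-like cells held 44340 and 48307 CPM of macrophage markers, beside 448 and 272 CPM of monocyte markers. Hepatocyte markers (5 genes, Alb among them) were at 0 in macrophage-like and monocyte-like cells of both libraries, and at most 6.00 CPM in the other 3 classes. Platelet markers (7 genes) summed to at most 21.6 CPM in each of the 5 classes. Whether either contributes to the levels below was not tested further.

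**Figure D1:**
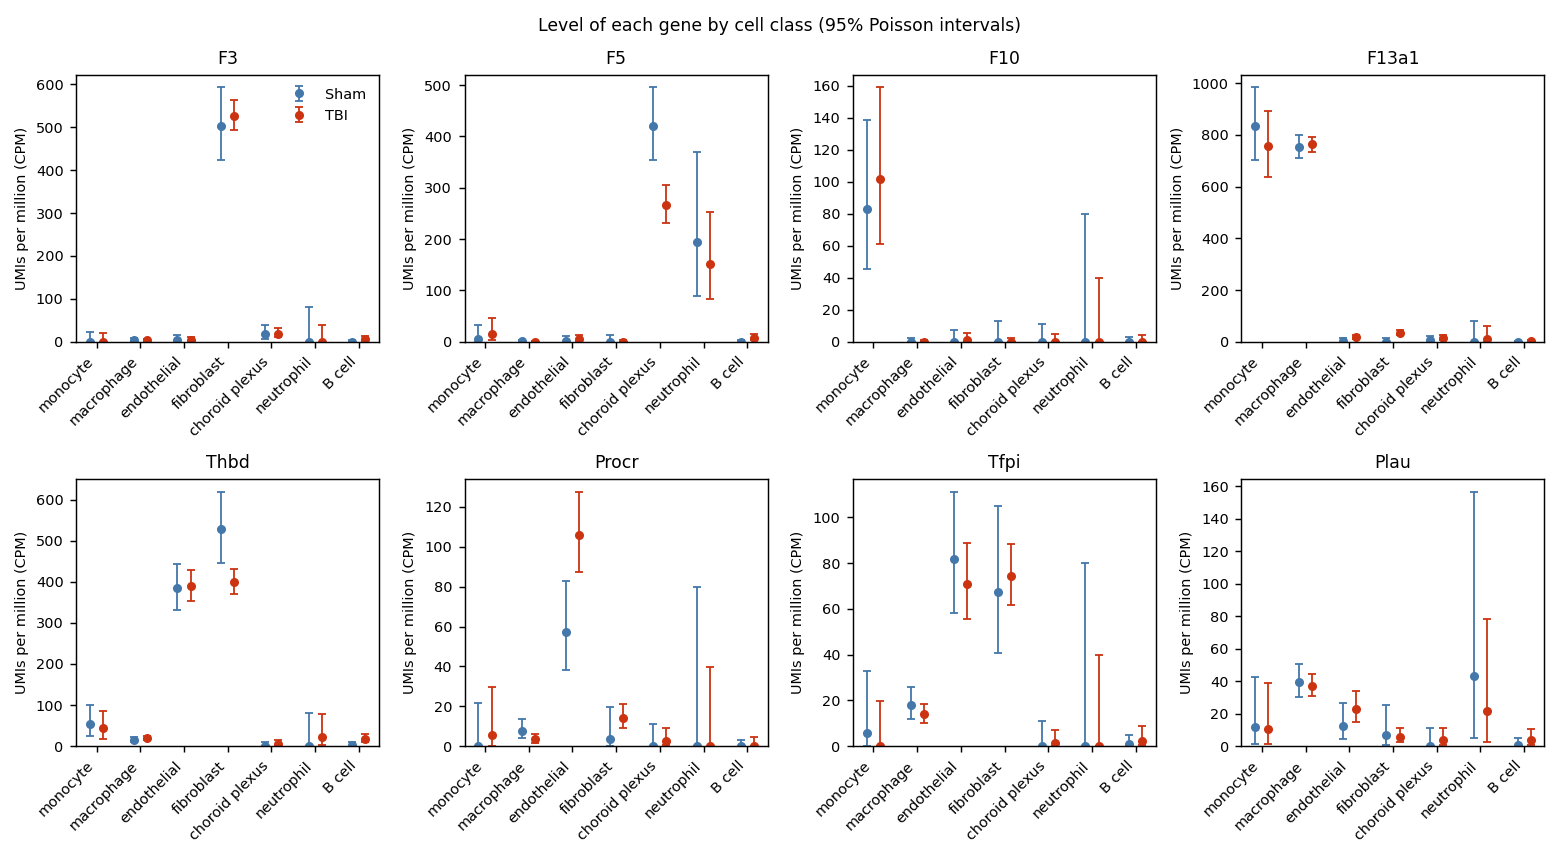
Level in CPM (vertical axis) of 8 genes in 7 cell classes (horizontal axis) in Sham (blue) and TBI (red), 1 library each, with 95% Poisson intervals. F3 stood at 503 and 527 CPM in fibroblast-like cells and at most 19.04 CPM in the other classes shown, whereas F13a1 stood between 754 and 834 CPM in monocyte-like and macrophage-like cells and at most 36.0 CPM in the other classes shown.

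F3, which encodes tissue factor, the cell-surface trigger of clotting, was a gene of fibroblast-like cells. It stood at 503 CPM in Sham (142 UMIs, interval 424 to 593) and at 527 CPM in TBI (893 UMIs, interval 493 to 562). The next class, Schwann-like cells, held 2 Sham and 14 TBI UMIs (27.6 and 131 CPM). Monocyte-like cells held no F3 UMI in either library, which allows up to 17.7 CPM in Sham and 16.1 CPM in TBI by a floor of 3 counts, and macrophage-like cells held 6 and 14 UMIs (3.82 and 3.98 CPM). Fibroblast-like cells thus gave 74.9% of the 1382 F3 UMIs, and the 5 unnamed clusters another 18.7%. After each cell was thinned to 1000 UMIs, 27.8% of 54 Sham and 23.8% of 420 TBI fibroblast-like cells held an F3 UMI, against 0 of 332 Sham B cell-like cells, which allows up to 0.904%, and 0.376% of 266 TBI ones, which served as background. Without thinning the shares were 35.0% and 38.8% of fibroblast-like cells.

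F3 varied within the fibroblast-like cells. The subcluster led by Tfcp2l1 and Penk had 836 CPM in Sham (100 UMIs) and 991 CPM in TBI (628 UMIs), and the one led by Moxd1 and Slc7a11 had 476 CPM (10 UMIs) and 876 CPM (176 UMIs). The subcluster led by Chad and Matn4, genes of cartilage-type matrix, had 158 CPM (10 UMIs) and 37.5 CPM (13 UMIs), a log2 ratio of -2.09 (interval -3.38 to -0.73). That subcluster held 16 Sham and 91 TBI cells, and the share of all genes past 2-fold was not taken within it. In the whole fibroblast-like class 10.2% of 9636 genes with at least 20 UMIs were past 2-fold either way. Unnamed cluster 6, led by Snhg11, Foxp2 and Bnc2, had 358 and 369 CPM of F3, and all of its 363 cells fell into the fibroblast-like class at a clustering resolution of 0.4. The subcluster led by Gm26917 and Myoc had 165 CPM (4 UMIs) and 168 CPM (36 UMIs). The one led by Meox2 and Clec3b had 226 CPM (4 UMIs) and 124 CPM (11 UMIs). F3 was therefore high in the Penk subcluster of both libraries and low in the Chad subcluster of both, though in Sham the Myoc subcluster was about as low.

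Thbd, the thrombin receptor that starts protein C activation, was about as high in fibroblast-like as in endothelial-like cells. Endothelial-like cells had 384 CPM in Sham (188 UMIs, interval 331 to 443) and 390 CPM in TBI (408 UMIs, interval 353 to 429). Fibroblast-like cells had 528 CPM in Sham (149 UMIs, interval 447 to 620) and 399 CPM in TBI (677 UMIs, interval 370 to 430). The fibroblast-like level was above the endothelial-like one in both libraries, but the intervals overlapped in TBI. Pericyte-like cells, which wrap small vessels, followed at 23.3 and 89.0 CPM on 1 and 11 UMIs. Monocyte-like cells had 53.2 and 42.9 CPM, immature B cell-like cells 47.7 and 48.3 CPM, and macrophage-like cells 15.3 and 18.8 CPM. Within fibroblast-like cells the Penk subcluster was the highest in Sham at 1003 CPM (120 UMIs), with 576 CPM in TBI (365 UMIs). In TBI the subcluster led by Ptgds, with 904 CPM (36 UMIs, 18 cells), and that led by Moxd1, with 607 CPM (122 UMIs), were above it, and the Chad subcluster had 47.4 and 72.0 CPM on 3 and 25 UMIs.

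**Figure D2:**
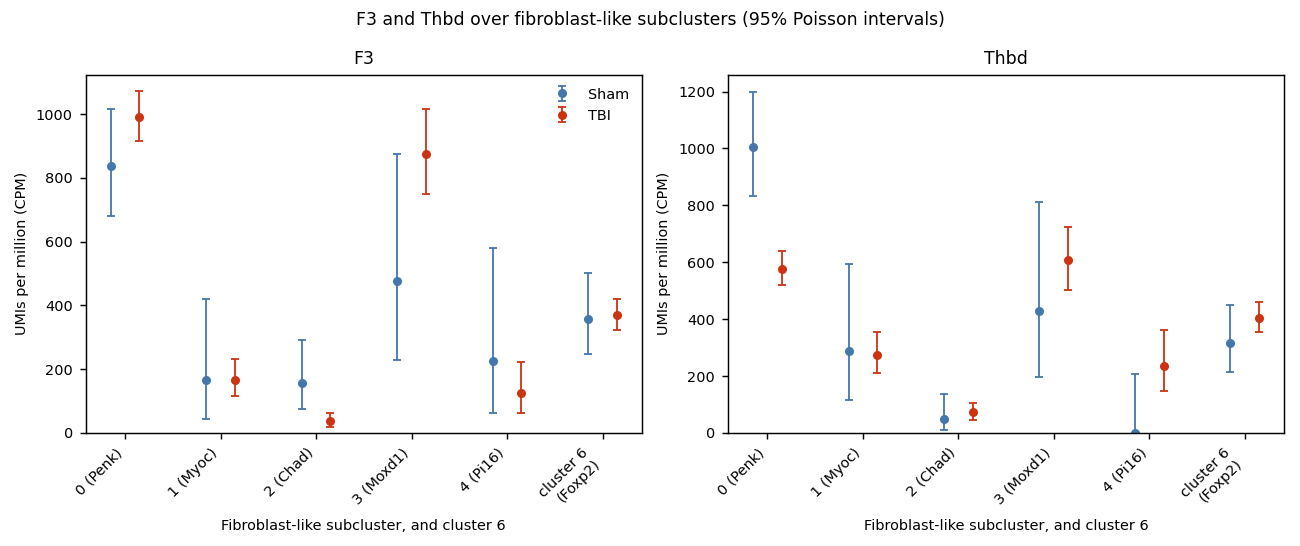
CPM (vertical axis) of F3 and Thbd in fibroblast-like subclusters 0 to 4 and in unnamed cluster 6 (horizontal axis, with a leading gene in brackets), Sham in blue and TBI in red, 95% Poisson intervals. Both genes were high in subcluster 0 (F3 836 and 991 CPM, Thbd 1003 and 576 CPM) and low in subcluster 2 (F3 158 and 37.5 CPM, Thbd 47.4 and 72.0 CPM).

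Procr, the receptor that presents protein C to thrombomodulin, was an endothelial gene, at 57.2 CPM in Sham (28 UMIs) and 106 CPM in TBI (111 UMIs). The next class, migratory dendritic-like cells, had 11.4 and 34.2 CPM on 2 and 7 UMIs. Among the endothelial-like clusters it differed far more than Thbd. Cluster 11, led by Vwf, Slco2a1, Lrg1 and Selp, genes known from venous endothelium, had 130 CPM in Sham (15 UMIs, interval 73.0 to 215) and 254 CPM in TBI (94 UMIs, interval 205 to 311). Cluster 2, led by Gpihbp1, Igfbp3 and Kdr, genes known from capillaries, had 34.7 CPM (13 UMIs) and 25.1 CPM (17 UMIs). Thbd stood at 400 and 427 CPM in cluster 11 and at 379 and 370 CPM in cluster 2. Procr was thus higher in the Vwf-led cluster of both libraries, while the Thbd intervals of the 2 clusters overlapped.

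The same division held other vessel genes of the pathway. Vwf, the adhesive carrier of factor VIII, is itself a leading gene of cluster 11 and had 3366 and 3726 CPM there, and F8, the gene of factor VIII, had 148 CPM (17 UMIs) and 170 CPM (63 UMIs). In cluster 2 Vwf had 10.7 and 44.3 CPM and F8 had 16.0 and 22.2 CPM. Unnamed cluster 22 was led by Slc38a5, Slco1a4 and Cldn5, genes of the blood-brain barrier, with Ackr1 also among its leading genes. It had 3418 and 3023 CPM of Vwf but no F8 UMI among 13 Sham and 41 TBI cells. So few cells do not set its F8 level apart from that of cluster 2. Unnamed cluster 15, led by Sema3g, Gja5 and Gkn3, genes of arteries, had 197 and 146 CPM of Vwf. Thbd in that cluster was 384 CPM in Sham (37 UMIs) and 221 CPM in TBI (35 UMIs), and in cluster 22 it was 559 CPM (17 UMIs) and 387 CPM (44 UMIs). Procr in cluster 15 was 62.3 CPM in Sham (6 UMIs) and 38.0 CPM in TBI (6 UMIs). In cluster 22 Procr was 65.7 CPM (2 UMIs) and 96.7 CPM (11 UMIs). All cells of clusters 15 and 22 were endothelial-like at a resolution of 0.4.

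Tfpi, which blocks the tissue factor pathway, was at like levels in endothelial-like cells (81.7 and 70.7 CPM on 40 and 74 UMIs) and fibroblast-like cells (67.3 and 74.3 CPM on 19 and 126 UMIs), and the order of these classes differed between the libraries. Pericyte-like cells had 46.6 and 32.4 CPM on 2 and 4 UMIs, and macrophage-like cells 17.8 and 13.9 CPM on 28 and 49 UMIs. Cluster 2 had 77.5 and 62.1 CPM and cluster 11 had 95.7 and 86.4 CPM. The arterial-type cluster 15 held 3 Sham and 1 TBI UMIs (31.2 and 6.33 CPM) and cluster 22 held 1 and 5 UMIs (32.9 and 43.9 CPM), and of these only the TBI value of cluster 15 had an interval (0.16 to 35.2) below those of clusters 2 and 11. All 3 anticoagulant genes were therefore present in endothelial-like cells, and 2 of them also in fibroblast-like cells, the class highest in F3. There Procr held 1 Sham and 24 TBI UMIs. Whether single cells held F3 together with these genes was not tested.

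**Figure D3:**
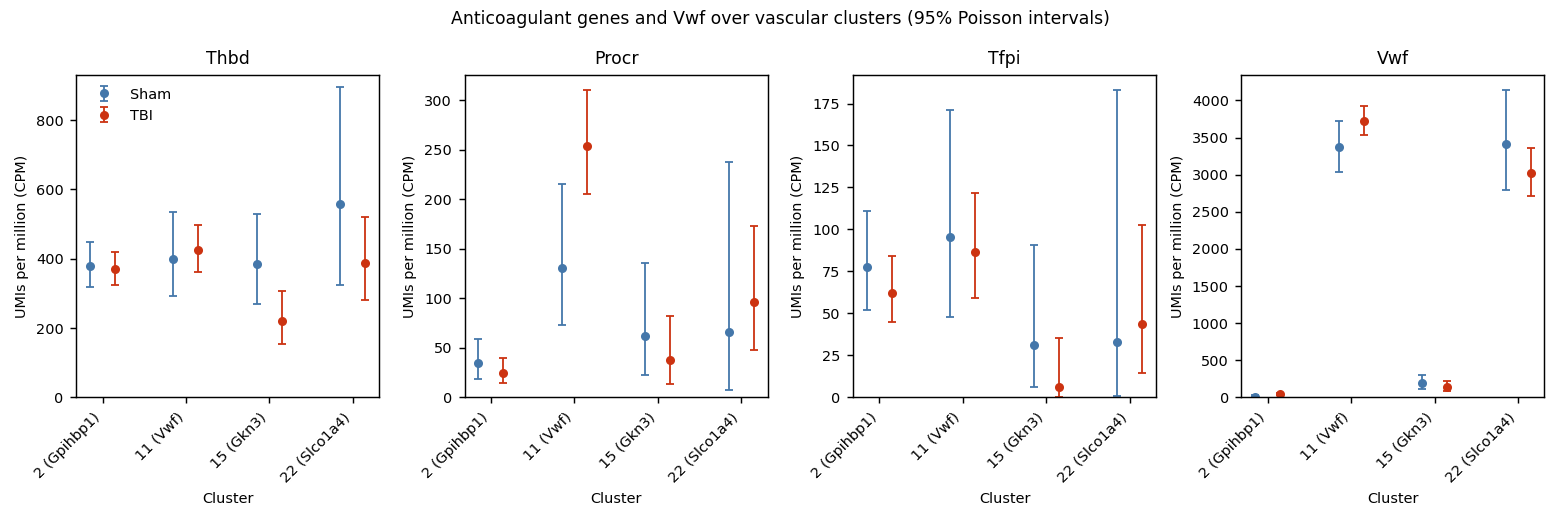
CPM (vertical axis, a separate scale per gene) of Thbd, Procr, Tfpi and Vwf in endothelial-like clusters 2 and 11 and unnamed clusters 15 and 22 (horizontal axis, with a leading gene in brackets), Sham in blue and TBI in red, 95% Poisson intervals. Procr was highest in cluster 11 (130 and 254 CPM), whereas Thbd ranged from 221 to 559 CPM over the 4 clusters.

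F13a1, which encodes the chain of factor XIII that cross-links fibrin, had the most UMIs of the 9 genes (1425 in Sham and 3097 in TBI). Macrophage-like cells held 85.6% of them. The level there was 754 CPM in Sham (1184 UMIs, interval 712 to 799) and 764 CPM in TBI (2688 UMIs, interval 735 to 793), and in monocyte-like cells 834 CPM (141 UMIs) and 756 CPM (141 UMIs). These classes did not differ beyond counting error, and which came first depended on the handling of doublets and of the hemoglobin limit. With cells assigned to classes by marker level instead of by cluster, the mean of both libraries was 834 CPM in macrophage-like and 466 CPM in monocyte-like cells, against 759 and 795 CPM by cluster. The next class, proliferating-like cells, had 31.7 and 121 CPM, and there 2 cells of each library held all of the 7 and 43 UMIs. After thinning, 40.5% of Sham and 40.9% of TBI macrophage-like cells held a UMI, against 0.301% of 332 Sham and 0 of 266 TBI B cell-like cells, the last allowing up to 1.13%.

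Macrophage-like clusters differed widely in F13a1. Cluster 3, led by Folr2, Cd209f and Fcrls, genes of border macrophages, had 1454 CPM in Sham (879 UMIs) and 1335 CPM in TBI (2277 UMIs). Cluster 8, led by Ccl8, Cbr2 and Cd209g and with a median of only 838 and 981 UMIs per cell, had 1179 CPM (137 UMIs) and 1073 CPM (181 UMIs). Cluster 5, led by Fcgr4, Slamf9, Klra2 and Cx3cr1, had 198 CPM (168 UMIs) and 140 CPM (230 UMIs). The intervals of cluster 5 lay below those of clusters 3 and 8 in both libraries. Unnamed cluster 14, led by F630028O10Rik and likewise shallow, had 972 CPM (56 UMIs) and 732 CPM (96 UMIs). Plau, the urokinase gene, was likewise higher in cluster 3, with 67.8 CPM (41 UMIs) and 57.5 CPM (98 UMIs), than in cluster 5, with 22.4 CPM (19 UMIs) and 18.2 CPM (30 UMIs). In the shallow clusters 8 and 14 its UMIs were too few to set an order beside that of F13a1. It had 17.2 and 17.8 CPM on 2 and 3 UMIs in cluster 8 and 69.5 and 61.0 CPM on 4 and 8 UMIs in cluster 14. Over all macrophage-like cells Plau had 39.5 CPM in Sham (62 UMIs, interval 30.3 to 50.6) and 37.2 CPM in TBI (131 UMIs, interval 31.1 to 44.2), and after thinning 3.50% and 3.78% of cells held a UMI.

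Within the 33 Sham and 40 TBI monocyte-like cells, F13a1 lay almost wholly on one side. The class was led by Apoc2, Gm9733, Treml4 and Adgre4, and its cells were divided by whether UMIs of Ly6c2, Ccr2, Chil3 and Vcan, genes of classical monocytes, outnumbered those of Treml4, Cd300e, Spn, Adgre4 and Eno3, genes of non-classical monocytes. This division was chosen after the levels of the class had been seen and does not use the genes described. The 11 Sham and 19 TBI cells on the Ly6c2 side held 134 of 141 and 141 of 141 F13a1 UMIs (1401 and 1134 CPM), in 10 and 17 of the cells. The 21 Sham and 20 TBI cells on the Treml4 side held 7 UMIs (99.4 CPM) and 0 UMIs, the last allowing up to 50.4 CPM by a floor of 3 counts. The lists were equal in 1 cell of each library, which held no F13a1 UMI.

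**Figure D4:**
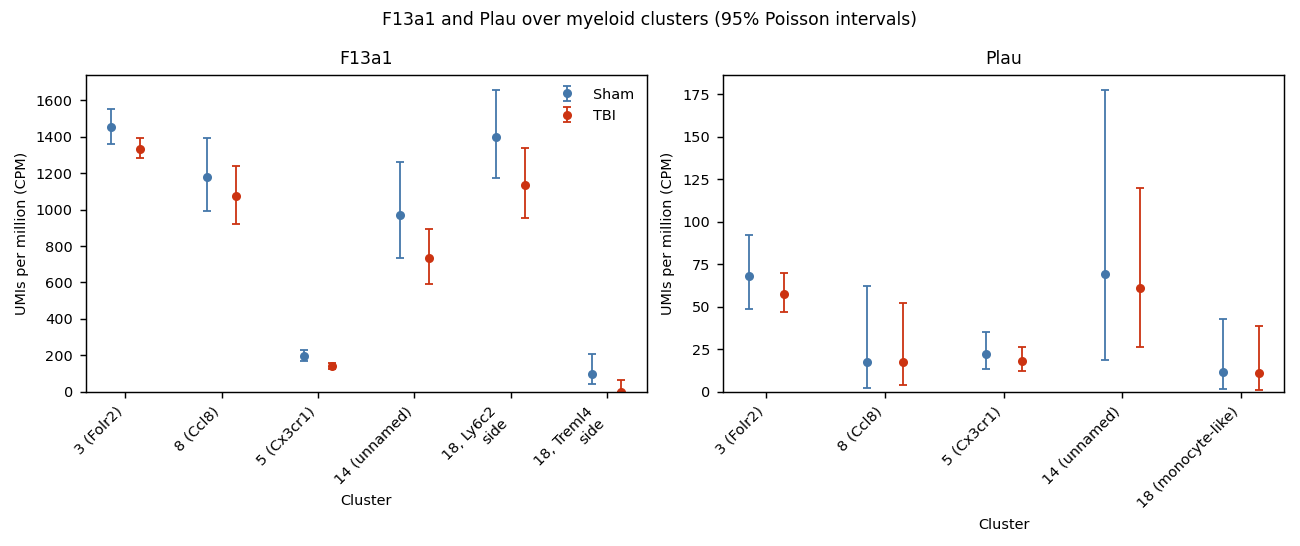
CPM (vertical axis) of F13a1 and Plau in macrophage-like clusters 3, 8 and 5, unnamed cluster 14 and monocyte-like cluster 18 (horizontal axis), Sham in blue and TBI in red, 95% Poisson intervals, with cluster 18 divided by the Ly6c2 and Treml4 gene lists for F13a1. F13a1 was at 732 CPM or more in clusters 3, 8 and 14 and on the Ly6c2 side, and at or below 198 CPM in cluster 5 and on the Treml4 side.

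F10, which encodes factor X, a protease known mainly from the liver, lay mostly in monocyte-like cells. Of its 38 UMIs, 33 (86.8%) were in that class, at 82.8 CPM in Sham (14 UMIs, interval 45.3 to 139) and 102 CPM in TBI (19 UMIs, interval 61.4 to 159). The next class, proliferating-like cells, held 0 Sham and 3 TBI UMIs. Macrophage-like cells held none in either library, which allows up to 1.91 CPM in Sham and 0.853 CPM in TBI. The UMIs lay in 8 of 33 Sham cells and 14 of 40 TBI cells, and unlike F13a1 they fell on both sides of the class: 10 and 15 on the Ly6c2 side (105 and 121 CPM) and 3 and 4 on the Treml4 side (42.6 and 67.2 CPM), with overlapping intervals, and 1 more in the Sham cell on neither side. F7, which encodes factor VII, lies directly before F10 on chromosome 8, 1498 bases from it with no gene between, yet held 2 UMIs in all, both from TBI, 1 in a monocyte-like and 1 in an endothelial-like cell. With F7 at 0 of 7866611 Sham UMIs, up to 0.381 CPM is allowed over the Sham library, where F10 stood at 1.78 CPM. In Sham monocyte-like cells alone the floor of 3 counts allows F7 up to 17.7 CPM.

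F5, which encodes factor V, was highest in choroid plexus-like cells, at 420 CPM in Sham (140 UMIs, interval 353 to 496) and 267 CPM in TBI (210 UMIs, interval 232 to 305), and these gave 80.1% of its UMIs. Neutrophil-like cells followed with 195 CPM (9 UMIs) and 151 CPM (14 UMIs), in a class of 16 and 26 cells. Pineal gland-like cells held 5 Sham UMIs (165 CPM) and none in TBI. After thinning, 38.9% of 54 Sham and 16.2% of 117 TBI choroid plexus-like cells held an F5 UMI (60.0% and 49.3% without thinning), against 0 of 332 and 0.376% of 266 B cell-like cells, the first allowing up to 0.904%. In the annotation F5 (chromosome 1, 164151838 to 164220277) overlaps Gm16588 on the same strand and Gm16548 on the opposite one, and F13a1 overlaps Gm49144 and Gm30489 on the opposite strand, so reads in the shared stretches may be assigned unevenly.

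Over all filtered cells, the genes of fibroblast-like and vessel cells were higher in TBI. F3 had 24.5 CPM in Sham and 85.3 CPM in TBI (log2 ratio 1.79, interval 1.58 to 2.02), Thbd 62.2 and 113 CPM (0.86, 0.71 to 1.01), Procr 7.37 and 14.3 CPM (0.95, 0.53 to 1.41) and Tfpi 13.7 and 21.95 CPM (0.67, 0.36 to 1.01). F13a1 had 181 and 222 CPM (0.29, 0.20 to 0.39), while the intervals of F5, F10 and Plau included 0. Fibroblast-like cells and cluster 6 together were 6.56% of Sham cells (interval 5.52 to 7.72) and 20.6% of TBI cells (interval 19.3 to 21.9). When the 28 clusters were given their TBI shares of UMIs but kept their Sham levels, F3 was 3.24-fold higher, against 3.48-fold as measured, and when they kept their Sham shares and took their TBI levels it was 1.18-fold higher. For Thbd the same values were 1.99-fold and 0.961-fold against 1.81-fold, and for Tfpi 1.75-fold and 0.893-fold against 1.599-fold. Procr differed in that shares alone gave 1.27-fold and levels alone 1.302-fold, against 1.95-fold as measured. Recovery of cells from the tissue was not measured, so more cells of a type in the meninges and more of them captured cannot be told apart.

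**Figure D5:**
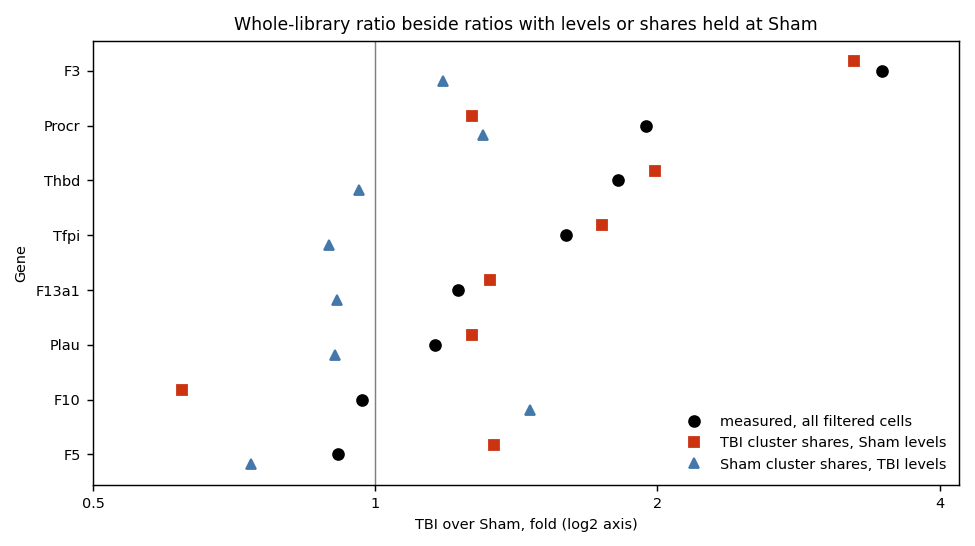
Fold of TBI over Sham (horizontal axis, log2 scale) of 8 genes (vertical axis) over all filtered cells: as measured (black circles), with TBI shares of the 28 clusters and Sham levels (red squares), and with Sham shares and TBI levels (blue triangles), each 1 library against 1 library. For F3 the measured 3.48-fold lay next to the 3.24-fold given by shares alone, whereas for Procr shares and levels gave 1.27-fold and 1.302-fold.

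Within classes, few of the genes differed by 2-fold between the libraries, the size taken here as a call wherever a class held 20 or more UMIs of a gene. In macrophage-like cells 1 of 6 genes was past 2-fold, Procr, lower in TBI on 12 UMIs in each library (log2 ratio -1.16, interval -2.45 to 0.12), where 3.65% of 9733 genes were past 2-fold either way. In monocyte-like cells 0 of 2 genes were, where 6.64% of 2620 genes were. In endothelial-like cells 1 of 5 was, F13a1, where 5.09% of 8435 genes were, and in fibroblast-like cells 2 of 5 were, F13a1 and Procr, where 10.2% of 9636 genes were. In choroid plexus-like cells 0 of 2 were, where 8.17% of 5175 genes were. In proliferating-like cells the 1 gene with as many UMIs, F13a1, was past 2-fold, where 9.52% of 4349 genes were, and no other class held a call. The fibroblast-like Procr call came from 1 Sham and 24 TBI UMIs (log2 ratio 1.44, interval -0.62 to 7.36). Its TBI level of 14.2 CPM was under 2-fold above the Sham floor of 3 counts, 10.6 CPM, so that the call rests on the low Sham count. The log2 ratio of F13a1 in macrophage-like cells was 0.02 (interval -0.08 to 0.12) and that of F3 in fibroblast-like cells 0.06 (interval -0.19 to 0.33), but within cluster 5 F13a1 was lower in TBI (-0.50, interval -0.79 to -0.21), and within cluster 3 slightly so (-0.12, interval -0.24 to -0.01). Among macrophage-like cells clustered anew, F13a1 was higher in TBI in the subcluster led by Cxcl10, Cxcl9 and Rsad2, genes known to answer to interferon. There it had 176 CPM (15 UMIs, 13 cells) in Sham and 533 CPM (116 UMIs, 36 cells) in TBI (1.56, interval 0.82 to 2.48). Ly6c2, one of the classical monocyte genes used above, was also among the leading genes of that subcluster. The part of such cells in the ratio was not tested, and the share of all genes past 2-fold was not taken there. The larger subclusters had F13a1 ratios below 0. Those led by Ccl8 and by Rgs1 had -0.14 (interval -0.34 to 0.07) and -0.29 (interval -0.74 to 0.18). Those led by Lyve1 and by S100a4 had -0.19 (interval -0.32 to -0.06) and -0.53 (interval -0.96 to -0.11). A subcluster of 1 Sham and 3 TBI cells, led by Igkv6-17 and Cd79a, held 0 and 32 UMIs. Cluster 3 was 5.82% of Sham and 8.56% of TBI cells.

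The 3 calls for F13a1 lay outside macrophage-like and monocyte-like cells and came with markers of other cells. In fibroblast-like cells it had 0 Sham and 61 TBI UMIs, at least 3.38-fold higher against a floor of 3 counts, and 56 of the 61 were in a subcluster of 16 TBI cells led by C1qc, Lyz2 and C1qa. Those 16 cells held 18207 CPM of macrophage markers and 31497 CPM of fibroblast markers, against 422 and 44758 CPM in the other 451 TBI fibroblast-like cells, and 11 of them were predicted doublets. Without that subcluster F13a1 had 0 and 5 UMIs. In endothelial-like cells it had 2 and 18 UMIs (log2 ratio 1.79, interval 0.01 to 5.22), 15 of them in a subcluster of 12 TBI cells led by Ly6d, Cd79b, Cd37, Ccl8 and C1qc. In proliferating-like cells (log2 ratio 1.85, interval 0.77 to 3.33), the 2 Sham and 2 TBI cells with F13a1 held 19263 and 17195 CPM of macrophage markers, against 5515 and 1147 CPM in the 27 and 45 cells without it.

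Procr in endothelial-like cells, Thbd in fibroblast-like cells and F5 in choroid plexus-like cells were under 2-fold but had intervals that left out 0. Procr was higher in TBI by a log2 ratio of 0.87 (interval 0.28 to 1.54), and within cluster 11 by 0.92 (interval 0.17 to 1.85), while in cluster 2 the ratio was -0.48 (interval -1.60 to 0.70). Cluster 11 itself was 2.64% of Sham cells and 3.74% of TBI cells. In cluster 11, where 11.9% of 4400 genes were past 2-fold, none of 3 genes was. Thbd was lower in TBI fibroblast-like cells by -0.41 (interval -0.66 to -0.14), and in the Penk subcluster by -0.80 (interval -1.10 to -0.49), from 21 Sham and 133 TBI cells. In the other subclusters it was not lower beyond counting error. The ratio was -0.16 (interval -1.20 to 1.31) in the one led by Gm26917 and Myoc and 0.43 (interval -0.47 to 1.67) in the Moxd1 subcluster. It was 0.41 (interval -1.11 to 2.98) in the Chad subcluster and 1.29 (interval -0.72 to 7.20) in the Ptgds subcluster. The one led by Meox2 and Clec3b held 0 UMIs in 6 Sham cells and 21 in 37 TBI cells, with an interval that began at 0.06. Cluster 6 stood at 0.34 (interval -0.19 to 0.96). In endothelial-like cells the Thbd ratio was 0.02 (interval -0.23 to 0.28). It was -0.79 (interval -1.50 to -0.09) in unnamed cluster 15, on 37 and 35 UMIs. In the endothelial-like subcluster led by C1qtnf9 and Fabp4 it was 0.83 (interval 0.05 to 1.77), on 15 and 72 UMIs. In clusters 2, 11 and 22 the Thbd intervals included 0. Endothelial markers, 17 genes, summed to 967 CPM in Sham and 423 CPM in TBI fibroblast-like cells. Without the 3 Sham and 4 TBI cells of a subcluster whose leading genes include the endothelial genes Flt1, Plvap and Ptprb, they summed to 180 and 233 CPM and the Thbd ratio was -0.41 (interval -0.67 to -0.13). In Sham, 5 cells held 47.0% of the fibroblast-like Thbd UMIs and 49.3% of the F3 UMIs. F5 was lower in TBI choroid plexus-like cells by -0.66 (interval -0.97 to -0.34), and by -1.28 as a mean over cells. With 5 pooled mice per library, none of these differences has a replicate check.

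The other 42 genes of the pathway list gave the setting. Of these, 23 held at least 20 UMIs, and 8 held none, among them the fibrinogen genes Fga, Fgb and Fgg and the protein C gene Proc. Prothrombin (F2) held 1 UMI, plasminogen (Plg) 1, factor IX (F9) 9, factor XI (F11) 2 and factor XII (F12) 3. Of the 23 genes, 4 were highest in endothelial-like cells (Vwf, Pros1, F8 and Tfpi2) and 4 in fibroblast-like cells (Vkorc1, Lman1, Plat and Ggcx). In pericyte-like cells 3 were highest, Serpine2 and Mcfd2 among them. Over the 14782 genes with as many UMIs, 7.58% were highest in endothelial-like, 8.77% in fibroblast-like and 11.8% in pericyte-like cells. The counts were not tested against these shares. Vkorc1 and Ggcx encode the enzymes of the vitamin K-dependent modification that factors VII and X need, and Lman1 and Mcfd2 encode the receptor that exports factors V and VIII from the cell. In fibroblast-like cells, Vkorc1 had 376 and 370 CPM, Lman1 301 and 303 CPM, and Plat, the gene of tissue plasminogen activator, 170 and 124 CPM. Protein S (Pros1), the cofactor of activated protein C, had 161 and 184 CPM in endothelial-like cells and 59.9 and 54.8 CPM in macrophage-like cells.

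Between the libraries, 0 of 12 other pathway genes with at least 20 UMIs were past 2-fold in macrophage-like cells, where 3.65% of all such genes were. The counts were 0 of 5 in monocyte-like cells (6.64% of all genes), 0 of 16 in endothelial-like cells (5.09%) and 2 of 13 in fibroblast-like cells (10.2%). Counts this small cannot be told from those shares. The 2 in fibroblast-like cells were Vwf, on 0 and 34 UMIs, and the thrombin receptor gene F2r, lower on 7 and 13 UMIs (log2 ratio -1.74, interval -3.13 to -0.13). Against a floor of 3 counts Vwf was at least 1.89-fold higher, so that its call rests on the value added to each sum. Vwf was also among the leading genes of the fibroblast-like subcluster with Flt1, Plvap and Ptprb (3 Sham and 4 TBI cells). The part of those cells in the Vwf call was not tested. The median log2 ratio of the list was 0.17 in macrophage-like, 0.55 in monocyte-like, 0.15 in endothelial-like and 0.00 in fibroblast-like cells, against 0.02, 0.04, 0.00 and -0.05 over all genes tested. In monocyte-like cells the annexin A2 complex that binds plasminogen and its activator was higher in TBI under 2-fold: Anxa2 had 722 and 1062 CPM (log2 ratio 0.55, interval 0.22 to 0.89) and S100a10 319 and 531 CPM (0.73, interval 0.24 to 1.24). In that class 5 cells held 81.5% of the Sham and 63.6% of the TBI S100a10 UMIs, and for Anxa2 52.5% and 51.0%. Cells on the Ly6c2 side were 11 of 33 in Sham and 19 of 40 in TBI, and their part in these ratios was not tested. Plaur, the urokinase receptor gene, had 177 and 156 CPM in monocyte-like cells, against 8.92 and 9.95 CPM in macrophage-like cells, which held Plau. Vwf in endothelial-like cells had 799 and 1347 CPM (log2 ratio 0.75, interval 0.59 to 0.92), but within cluster 11, which held most of it, the ratio was 0.15 (interval -0.02 to 0.31), while in cluster 2 it was 1.91 on 4 and 30 UMIs (interval 0.55 to 4.02).

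Across the 19 classes, both libraries summed, the genes whose levels were most like each gene's were found by Pearson's r of log2(CPM + 1), as a description over classes that share libraries. For F13a1 they were Trem2 (r = 0.89), C3ar1 and Hpgd, and for Plau Cd14 (r = 0.84), Cd300ld and Tgfbi. For F3 they were Mmp2 (r = 0.89), Islr and S100b, the last highest in Schwann-like cells, the second class for F3. For Tfpi they were Afap1l1 (r = 0.94), Jcad and Ppic, and for Thbd Chmp3 (r = 0.84), Ano6 and Tfpi itself (r = 0.81). For Procr they were Exoc3l4 (r = 0.85), Sh3bp4 and Zfp366, and for F5 Atp6v1e1 (r = 0.86), Zfp106 and Gpi1. F10 and F7 had too few UMIs for this comparison.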

How the data were processed

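The authors mapped the reads of each library to mm10 and counted UMIs with Cell Ranger (version 2.1.1 in the submitters' processing notes, 3.1.0 in the matrix headers), and deposited raw UMI counts per gene and called barcode, before further filters and without normalization. Barcodes were kept by the limits in the study's methods: 150 to 5000 genes, at most 20% mitochondrial and at most 5% hemoglobin UMIs. The libraries were clustered jointly, with no correction for batch (scanpy 1.11.5: 2000 variable genes, 20 principal components, 20 neighbours; leidenalg 0.10.2 at resolution 0.8), and macrophage-like, endothelial-like and fibroblast-like cells were clustered anew by the same steps. Names needed 3 or more class markers among the 50 genes with the largest fold in a cluster. No annotation of cells by the authors was used. Of the pathway list, 1 gene is not reported here. Predicted doublets (33 Sham, 114 TBI) were left in. UMIs were summed per class and library and expressed as CPM with exact Poisson intervals, shares of cells have exact Clopper-Pearson intervals, and log2 ratios of TBI over Sham had 0.5 added to each sum and an exact binomial interval. A value of 0 was bounded by a floor of 3 counts. No p-value was computed, since each group is 1 library. The genes, the lists and the markers were chosen with earlier results of these data known. Genes named are the 9, other pathway genes that reached 20 UMIs in the class described or named for their low count, the 3 genes most like each gene with at least 100 UMIs, cluster leaders and markers. Ratios were tested on simulated data for macrophage-like and monocyte-like cells only, where 96.1% and 96.3% of the intervals held the true ratio. With 1 library per group, this does not address the spread between mice. Positions come from GENCODE vM21 on GRCm38, and promoters from RefSeq on GRCm38.p6, which held 7 of the 9 genes. Alternatives changed the hemoglobin limit, doublets, resolution, clustering genes, class assignment, scaling, fold and UMI minimum.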

Additional observations from a re-analysis of the deposited data

Results flagged for a closer look

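Signal of the genes, at more than 3 UMIs per gene, was also present in barcodes that the cell limits removed, 656 in Sham and 576 in TBI. Those removed by the hemoglobin limit alone enter only the alternative above that lifted this limit. The others enter none of the comparisons above. In the removed Sham barcodes F13a1 stood at 37.9 CPM, F5 at 16.3 CPM, F3 at 13.2 CPM and Thbd at 12.0 CPM. In the removed TBI barcodes F3 stood at 47.6 CPM, Thbd at 33.6 CPM, F13a1 at 20.6 CPM, Tfpi at 8.41 CPM, F5 at 4.67 CPM and Procr at 3.74 CPM. Of the 63 Sham F13a1 UMIs, 57 were in barcodes removed by the hemoglobin limit alone. Barcodes removed by the hemoglobin limit alone were given classes only in the alternative without that limit, and the other removed barcodes were given none.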

How the results depend on the processing

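Of the log2 ratios of TBI over Sham recomputed under alternatives, 104 stayed within the counting interval of the reported value and 5 left it. Of the levels 47 stayed and 9 left it, and of the shares of cells with a UMI, recomputed without thinning or for at least 2 UMIs, 20 stayed and 24 left it. With predicted doublets removed, Thbd in fibroblast-like cells was at -0.76. As a mean over cells, F3 in fibroblast-like cells was at 0.38, Tfpi there at 1.27, F13a1 in macrophage-like cells at -0.26 and F5 in choroid plexus-like cells at -1.28. The cause of these shifts was not tested. Procr in endothelial-like cells ranged from 0.41 to 0.94 over 9 alternatives and was above 0 in each. F5, F10, Thbd in fibroblast-like and Tfpi in endothelial-like cells also kept their sign in 9 of 9, and Plau and the monocyte-like F13a1 in 8 of 9, whereas ratios of F13a1 in macrophage-like, F3 and Tfpi in fibroblast-like and Thbd in endothelial-like cells, whose reported intervals included 0, took either sign. The highest class changed for F13a1, between monocyte-like and macrophage-like, and for Tfpi, between endothelial-like and fibroblast-like, and for none of the 6 others with enough UMIs over 6 alternatives. Leaving out the fibroblast-like subcluster led by C1qc, or the one with endothelial leading genes, alternatives chosen after seeing the data, kept F3, Thbd and Tfpi within their intervals. With the pathway genes allowed among the variable genes of the fibroblast-like subclusters, also chosen after seeing the data, the Penk subcluster had 934 and 1061 CPM of F3 and 1084 and 604 CPM of Thbd, and the Chad subcluster 242 and 47.2 CPM of F3 and 154 and 128 CPM of Thbd, where the Thbd ratio turned from 0.41 to -0.30, both with intervals that included 0.

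Counts of other pathway genes past the fold depended on the limits. At 1.5-fold they were 1 of 12 in macrophage-like, 2 of 5 in monocyte-like, 4 of 16 in endothelial-like and 4 of 13 in fibroblast-like cells, where 12.4%, 22.9%, 18.7% and 26.6% of all genes tested were past it. With no minimum of UMIs they were 2 of 20, 5 of 15, 2 of 22 and 9 of 24, against 19.5%, 37.4%, 21.96% and 29.7%, and with at least 50 UMIs fibroblast-like cells had 0 of 11, against 4.59%. No paired analysis was possible because each group is 1 library. Depth limits the genes with few UMIs: the interval of F10 in monocyte-like cells, -0.77 to 1.41, includes a 2-fold rise.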

Other observations

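Several other genes of the pathway stood highest in the following classes, as means of both libraries. Serpine2, which encodes the thrombin inhibitor protease nexin-1, stood at 1015 CPM in pericyte-like cells, the cells around small vessels. Plaur, the urokinase receptor gene, stood at 373 CPM in neutrophil-like cells, on 13 UMIs in 16 Sham and 43 in 26 TBI cells. Of the TBI ones, 30.2% were in 1 cell. F2r, a thrombin receptor gene, stood at 231 CPM in gamma-delta or Th17-like cells, a class of 14 Sham and 31 TBI cells. F2rl1, which encodes a receptor cut by trypsin-like proteases, stood at 127 CPM in pineal gland-like cells, a class of 13 Sham and 31 TBI cells. Serpind1, the gene of heparin cofactor II, stood at 140 CPM in Schwann-like cells. Over all filtered cells of every class F2rl1 and Serpind1 held 57 and 40 UMIs. Those of Serpind1 were 5 in Sham and 35 in TBI, and 5 cells held 65.7% of the TBI ones. Over the 14782 genes with at least 20 UMIs, 11.8% were highest in pericyte-like, 11% in Schwann-like and 10.9% in pineal gland-like cells. The shares were 6.61% for gamma-delta or Th17-like, 4.28% for neutrophil-like and 2.67% for monocyte-like cells. Serpinb2, a plasminogen activator inhibitor gene, stood at 78.1 CPM in monocyte-like cells, on 11 Sham and 17 TBI UMIs of that class.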
